A study of Mus musculus with 24 samples.

Results

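The transcription factor p53 has a set of well-known target genes, of which 10 were followed in TM3 cells after exposure to nanosecond pulsed electric field (nsPEF) or sham treatment, namely Mdm2, Ccng1, Cdkn1a, Gadd45a, Btg2, Bbc3, Pmaip1, Bax, Sesn1 and Trp53inp1. They were chosen by name, and their probes were found by matching the RefSeq transcript printed for every probe to the gene symbols. The match gave 15 of the 56605 probes on the array, for 10 of the 23787 genes with a symbol. Mdm2, Cdkn1a, Btg2, Bax and Trp53inp1 had 2 probes each and the other genes had 1. For a gene with 2 probes, the one with the higher mean over all arrays is called the main probe, and counts of genes rest on the main probes. All 15 probes passed the filter on dim probes, as did 37687 of the 56605 probes in all. Of the 360 values of these probes, 359 were measured and all 359 lay well above background. The remaining value, of the main Bax probe on nsPEF replicate 1 at 24 h, came from a spot marked as not uniform and was left out.

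TM3 is an established mouse Leydig cell line. The cells were suspended in binding buffer in electroporation cuvettes and were either sham-exposed or given 80 pulses of 60 ns width and 5.5 kV amplitude, a field of 14 kV/cm. RNA was taken at 0, 4 and 24 h, which gave the groups S0, S4 and S24 of sham cells and E0, E4 and E24 of nsPEF cells, each with 4 biological replicates on 4 one-colour arrays. Both sham and nsPEF cells went through the washing, suspension and cuvette, and no untouched culture was among the samples. Of 10 Leydig cell markers, 9 were on the array, and Star, Cyp17a1, Nr5a1 and Gata4 lay well above background on all 24 arrays. Cyp11a1, Hsd3b6, Hsd17b3 and Lhcgr, among them the enzyme of the first step of steroid synthesis and the receptor for luteinizing hormone, were well above background on 0 of 24 arrays, Hsd3b1 was on 1, and Insl3 had no probe. Of markers of other testis cells, 3 of 6 for Sertoli cells, 4 of 5 for peritubular cells and fibroblasts, 2 of 5 for macrophages, 0 of 4 for germ cells and 1 of 3 for endothelium were well above background on all arrays.

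p53 is held at a low level in resting cells by Mdm2, a ubiquitin ligase that marks it for breakdown. DNA damage and other stresses release it, and it then switches on genes that stop the cell cycle, repair DNA, limit reactive oxygen or start apoptosis, together with Mdm2 itself, which closes the loop. Most of these genes also answer to other factors: Btg2 and Cdkn1a to growth factor and serum signals, Gadd45a and Pmaip1 to Atf4 in the integrated stress response, and Sesn1 and Bbc3 to FoxO factors when growth signals fall.

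All values below are log2 of the processed signal minus the array's 75th percentile, called the normalized log2 signal, and a difference of 1 is a 2-fold change. They compare a probe with itself across arrays and say nothing of the level of one gene against another. Each slide carried the 8 arrays of 1 time, and sham and nsPEF samples took separate rows of each slide, so that time and slide, and treatment and slide row, cannot be told apart. The 75th percentile ran from 377 to 787 intensity units on the sham arrays and from 300.3 to 501 on the nsPEF arrays. The share of probes well above background ran from 57.5% to 62.1% and from 51.2% to 57.2%, so that the latter ranges did not overlap. The part of these differences between arrays in the results was not tested. In RNA from whole cultures, fewer cells expressing a gene and less of its RNA per cell cannot be told apart.

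Promoters are shown for Cdkn1a and Mdm2, which rose at 4 h, for Btg2, which fell most, and for Ccng1, which was lower with nsPEF at 4 h. RefSeq, on the GRCm38.p6 build, gives 12 promoter windows for 8 of the 10 genes (250 bases before the start of transcription and 50 after it), and none for Pmaip1 and Trp53inp1. Capitals mark matches to the p53 half-site consensus of 10 bases, to a pair of adjacent half-sites with at most 1 mismatch in 20 bases, or, in Btg2, to the cAMP response element TGACGTCA. The table does not say which transcript starts in which window.
Cdkn1a promoter, chr17:29090729-29091028, plus strand: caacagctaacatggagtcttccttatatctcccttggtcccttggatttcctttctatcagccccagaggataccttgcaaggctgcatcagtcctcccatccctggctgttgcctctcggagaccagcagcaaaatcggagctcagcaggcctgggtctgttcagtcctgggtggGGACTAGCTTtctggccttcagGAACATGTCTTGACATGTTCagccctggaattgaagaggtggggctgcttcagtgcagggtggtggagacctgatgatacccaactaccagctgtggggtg
Mdm2 promoter, chr10:117710709-117711008, minus strand: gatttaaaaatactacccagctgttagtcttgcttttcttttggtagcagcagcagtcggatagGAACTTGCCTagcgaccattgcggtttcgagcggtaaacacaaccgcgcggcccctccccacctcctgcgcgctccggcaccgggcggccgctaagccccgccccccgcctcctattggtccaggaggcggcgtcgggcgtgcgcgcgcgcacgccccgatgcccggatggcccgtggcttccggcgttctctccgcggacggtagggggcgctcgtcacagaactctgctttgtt
Ccng1 promoter, chr11:40755237-40755536, minus strand: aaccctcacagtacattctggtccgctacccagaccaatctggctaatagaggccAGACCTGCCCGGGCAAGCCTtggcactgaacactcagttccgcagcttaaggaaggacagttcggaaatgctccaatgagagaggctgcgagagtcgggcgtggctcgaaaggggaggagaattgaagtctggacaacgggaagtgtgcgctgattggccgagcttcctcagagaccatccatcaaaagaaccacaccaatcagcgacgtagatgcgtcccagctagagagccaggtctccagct
Btg2 promoter, chr1:134079106-134079405, minus strand: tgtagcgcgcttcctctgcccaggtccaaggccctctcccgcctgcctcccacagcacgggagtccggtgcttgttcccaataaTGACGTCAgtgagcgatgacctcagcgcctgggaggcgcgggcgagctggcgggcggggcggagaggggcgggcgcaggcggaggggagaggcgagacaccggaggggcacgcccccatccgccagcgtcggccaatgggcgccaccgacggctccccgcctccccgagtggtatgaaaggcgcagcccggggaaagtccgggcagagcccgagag

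A half-site without mismatch was found in 6 of the 12 windows of these genes and in 8.36% of all 32851 windows, on either strand, and an adjacent pair in 2 of the 12 and in 0.0883% of all. The Cdkn1a window above holds the pair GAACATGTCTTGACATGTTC, with 1 mismatch, from 51 bases before the start, and a further half-site, GGACTAGCTT, from 73 bases before it, while the other Cdkn1a window has no match. The Ccng1 window holds the other pair, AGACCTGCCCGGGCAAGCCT, also with 1 mismatch, from 195 bases before the start. Single half-sites lie 186 bases before the start in Mdm2, 40 in Gadd45a, 201 in Bax and 173 in 1 of the 2 Sesn1 windows, and the windows of Btg2 and Bbc3 have none. The cAMP response element of Btg2, 166 bases before its start, was the only match of that motif among the 12 windows and is found in 1.79% of all windows. These are matches of letters, not measured binding sites.

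Time moved these genes far more than nsPEF did. Between 0 and 4 h in sham cells, 7 of the 10 genes changed, against 59.3% of all tested probes in the same comparison (limma, adjusted p under 0.05 throughout). Cdkn1a and Mdm2 rose (29% of all probes did), and Btg2, Trp53inp1, Sesn1, Gadd45a and Bbc3 fell (30.3%). In nsPEF cells 9 of 10 changed over the same interval, against 61.3% of all probes. Here Cdkn1a and Mdm2 rose (32.8% of all probes), and Btg2, Trp53inp1, Sesn1, Gadd45a, Bbc3, Ccng1 and Pmaip1 fell (28.4%). From 4 to 24 h all 10 genes changed in sham cells, where 57.5% of all probes did, and 9 in nsPEF cells, where 56.7% did. Between 0 and 24 h, 8 genes passed for sham (36.7% of all probes) and 10 for nsPEF (42.4%). The shares among the 10 genes lie above those of all probes in each of these 6 comparisons, but the time comparisons of a treatment share arrays, and with this many probes changed a count of called genes says little. The sizes varied with the comparison. Between 0 and 4 h in sham cells the median size of the change was 1.00 for the 10 genes and 0.47 for all tested probes. There 7 of the 10 genes did not overlap between groups, against 57.5% of all probes. From 0 to 24 h in sham cells the median sizes were 0.28 and 0.26, and from 4 to 24 h 0.60 and 0.44. In nsPEF cells they were 0.80 and 0.51 from 0 to 4 h, 0.50 and 0.29 from 0 to 24 h, and 0.53 and 0.44 from 4 to 24 h.

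**Figure D1:**
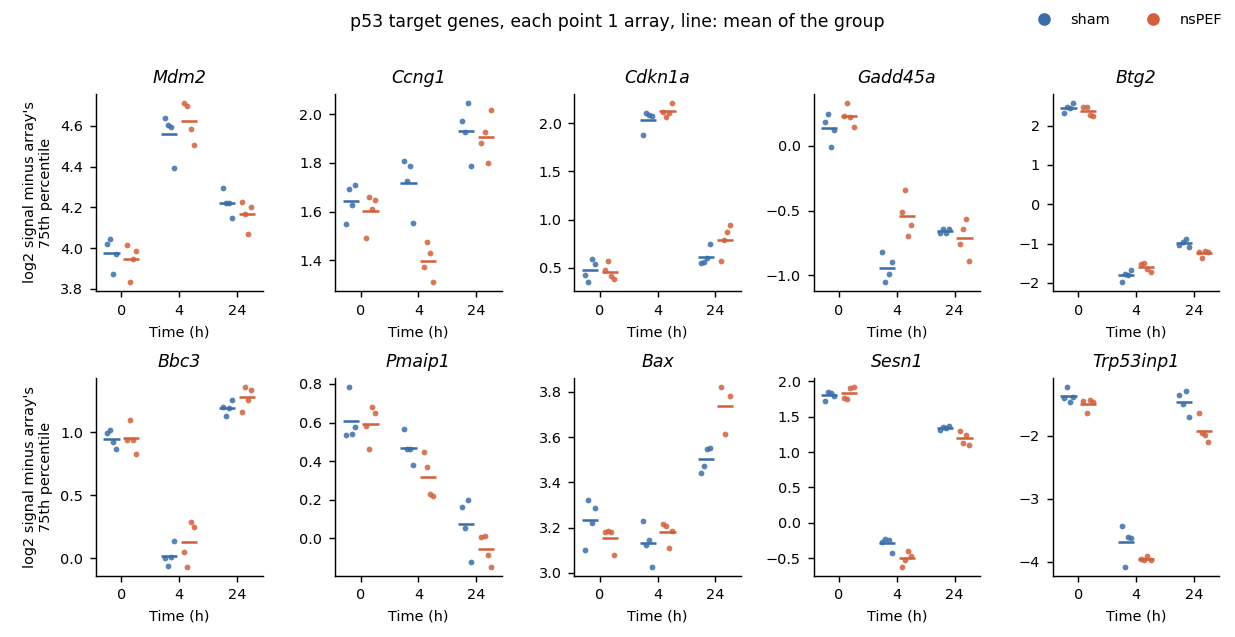
Normalized log2 signal (y axis) of the main probe of each p53 target gene on every array, by hours after treatment (x axis), for sham (blue) and nsPEF (orange) cells; short lines are group means, n = 4 arrays except 3 for Bax in nsPEF at 24 h. Each panel has its own scale. Cdkn1a and Mdm2 peak at 4 h, Sesn1, Bbc3 and Trp53inp1 have their lowest values there, and Btg2 lies far below its 0 h level at both later times.

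Spike-in RNA gave another view of the scale. When the arrays were scaled on 6 spike-in probes, the median difference of all tested probes from 0 to 24 h was 0.70 for sham and 0.54 for nsPEF cells, while the 75th percentile gave 0.02 and 0.07, whereas from 0 to 4 h it was 0.04 and 0.17. The 4 h changes of the called genes kept their sign under this scaling, but in nsPEF cells Ccng1 (-0.11, adjusted p = 0.332) and Pmaip1 (-0.18, adjusted p = 0.162) did not pass. Several changes up to 24 h lost their call or changed sign, and they are named below as changes relative to the other probes of the array.

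Mdm2, the ligase that degrades p53, rose at 4 h in sham and nsPEF cells. Relative to the other probes of the array it was partly back at 24 h. The main probe read 3.98 ± 0.075 (SD, n = 4) in S0, 4.56 ± 0.112 in S4 and 4.22 ± 0.060 in S24. In nsPEF cells it read 3.95 ± 0.081 in E0, 4.62 ± 0.098 in E4 and 4.17 ± 0.069 in E24. All 8 arrays of 4 h, at 4.39 to 4.71, lay above the 16 arrays of the other times, at 3.83 to 4.29. From 0 to 4 h Mdm2 was 1.50-fold higher in sham (0.58 ± 0.063, SE, adjusted p = 9.64e-08) and 1.60-fold higher in nsPEF (0.68, adjusted p = 9.61e-09). By 24 h it was below its 4 h value by a log2 difference of -0.34 in sham (adjusted p = 0.000127) and of -0.46 in nsPEF (adjusted p = 3.3e-06). Under the spike-in scaling the sham difference turned to 0.29, which passed in the other direction (adjusted p = 0.014). The nsPEF difference shrank to -0.08 (adjusted p = 0.52). With quantile normalization the sham difference was -0.11 (adjusted p = 0.112). nsPEF and sham differed by -0.03, 0.07 and -0.05 at 0, 4 and 24 h, with 95% intervals of -0.16 to 0.10, -0.07 to 0.20 and -0.19 to 0.08.

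Ccng1, cyclin G1, which works with a phosphatase to activate Mdm2, was lower in nsPEF than in sham cells at 4 h. In S4 the 4 arrays read 1.81, 1.73, 1.79 and 1.55, and in E4 they read 1.37, 1.48, 1.43 and 1.31. The groups did not overlap. The difference was -0.32 ± 0.068 (SE), 1.25-fold lower in nsPEF (adjusted p = 0.0156). At 0 h the arrays read 1.55, 1.69, 1.63 and 1.71 in S0 and 1.49, 1.66, 1.61 and 1.65 in E0, and at 24 h 1.97, 1.93, 2.05 and 1.79 in S24 and 1.88, 1.93, 1.80 and 2.02 in E24. These pairs of groups overlapped, with differences of -0.04 (adjusted p = 0.931) and -0.03 (adjusted p = 0.85). Over time, Ccng1 in sham was 0.07 from 0 h at 4 h (adjusted p = 0.368) and 0.29 higher at 24 h (adjusted p = 0.00231), while in nsPEF it was lower by -0.20 at 4 h (adjusted p = 0.0128) and 0.30 higher at 24 h (adjusted p = 0.00126). The fall at 4 h in nsPEF relative to sham was -0.13 under the spike-in scaling (adjusted p = 0.328), where the median of all probes was 0.19, and it did not pass either when values were centred by row and signal within the array. Leaving out replicate number 1, 2 or 3 in all groups lost the 4 h call as well (adjusted p = 0.0811 to 0.133).

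Cdkn1a, which encodes the cyclin-dependent kinase inhibitor p21 and is the usual readout of p53 activity, rose about 3-fold by 4 h with or without nsPEF. The main probe read 0.43, 0.35, 0.58 and 0.54 on the S0 arrays, 1.88, 2.11, 2.09 and 2.08 on the S4 arrays and 0.55, 0.56, 0.59 and 0.74 on the S24 arrays. In nsPEF cells it read 0.47, 0.56, 0.41 and 0.38 in E0, 2.12, 2.07, 2.11 and 2.22 in E4 and 0.57, 0.79, 0.87 and 0.94 in E24. The 8 arrays of 4 h stood apart from all others in sham and nsPEF alike. The rise from 0 to 4 h was 2.96-fold in sham (1.57 ± 0.077, SE, adjusted p = 4.44e-13) and 3.18-fold in nsPEF (1.67, adjusted p = 1.6e-13). At 24 h nsPEF cells were 0.33 above their 0 h value (adjusted p = 0.00171) and sham cells 0.14 above (adjusted p = 0.17). The sham value passed with the spike-in scaling, at 0.82 (adjusted p = 1.54e-08), and as the mean of the probes, at 0.28 (adjusted p = 0.00882). The nsPEF value kept its call under both.

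Between nsPEF and sham, Cdkn1a did not pass the test at any time. Over the times in order the difference was -0.02, 0.09 and 0.18, with 95% intervals of -0.18 to 0.14, -0.07 to 0.25 and 0.02 to 0.34 and adjusted p of 0.985, 0.54 and 0.175. In 3 of 4 nsPEF arrays at 24 h Cdkn1a lay above all 4 sham arrays, and replicate 1 lay among them. Without that array the 24 h difference was 0.25 (adjusted p = 0.0306). An excess at 24 h greater than 0.34 on the log2 scale lies outside the interval.

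Gadd45a, a growth arrest and DNA repair protein, fell by 4 h and fell less after nsPEF. The arrays read 0.18, 0.25, -0.01 and 0.12 in S0 and 0.23, 0.33, 0.22 and 0.15 in E0. At 4 h they read -0.82, -1.05, -0.99 and -0.90 in S4 and -0.51, -0.35, -0.69 and -0.61 in E4, and at 24 h -0.67, -0.64, -0.67 and -0.65 in S24 and -0.76, -0.64, -0.57 and -0.89 in E24. Only at 4 h were the nsPEF arrays all above the sham arrays. There the difference was 0.40 ± 0.079 (SE), 1.32-fold higher in nsPEF (adjusted p = 0.0124), and it passed the test under all 11 processing alternatives, at 0.34 to 0.59, and without any single array, at 0.33 to 0.45. It did not pass without replicate number 1, 2 or 3 in all groups (0.30 to 0.43, adjusted p = 0.0578 to 0.0945). In the same comparison the difference was 0.10 at 0 h (adjusted p = 0.782) and -0.06 at 24 h (adjusted p = 0.696). From 0 to 4 h Gadd45a was lower by -1.07 in sham (2.11-fold, adjusted p = 2.35e-10) and by -0.77 in nsPEF (1.71-fold, adjusted p = 3.52e-08). At 24 h it differed from 0 h by -0.79 in sham (adjusted p = 1.52e-07) and by -0.95 in nsPEF (adjusted p = 1.08e-08). Under the spike-in scaling the sham value at 24 h was -0.11 (adjusted p = 0.282) and did not pass. The test of whether these courses differed between sham and nsPEF gave an adjusted p of 0.108.

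Btg2, an antiproliferative gene that is both a p53 target and an immediate-early gene, had the largest change of the 10. Its main probe read 2.32, 2.48, 2.44 and 2.59 in S0, -1.98, -1.77, -1.79 and -1.67 in S4 and -1.03, -0.97, -0.89 and -1.08 in S24. In nsPEF cells the values were 2.47, 2.46, 2.28 and 2.24 in E0, -1.51, -1.49, -1.65 and -1.71 in E4 and -1.20, -1.37, -1.20 and -1.20 in E24. Every array of 0 h lay above every array of 4 and 24 h. The fall from 0 to 4 h was 19.1-fold in sham (-4.26 ± 0.078, SE, adjusted p = 2.66e-19) and 15.5-fold in nsPEF (-3.95, adjusted p = 6.06e-19), and at 24 h Btg2 was still 10.9-fold and 12.2-fold below 0 h. On either probe the E24 arrays all lay under the S24 arrays. The second probe, with -0.87, -1.04, -0.81 and -1.02 in S24 and -1.27, -1.64, -1.36 and -1.53 in E24, differed by -0.52 ± 0.102 (SE, adjusted p = 0.00844) and kept the call under all 10 processing alternatives and without any single array, but not without replicate number 2 or 3 in all groups (adjusted p = 0.0932 and 0.0666). The main probe differed by -0.25 (adjusted p = 0.0654) and did not pass. With the deposited values (-0.28, adjusted p = 0.0399) and without the filter on dim probes (adjusted p = 0.0415) it did. At 4 h the probes gave 0.21 (adjusted p = 0.127) and -0.13 (adjusted p = 0.479), so the direction there is unsettled.

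**Figure D2:**
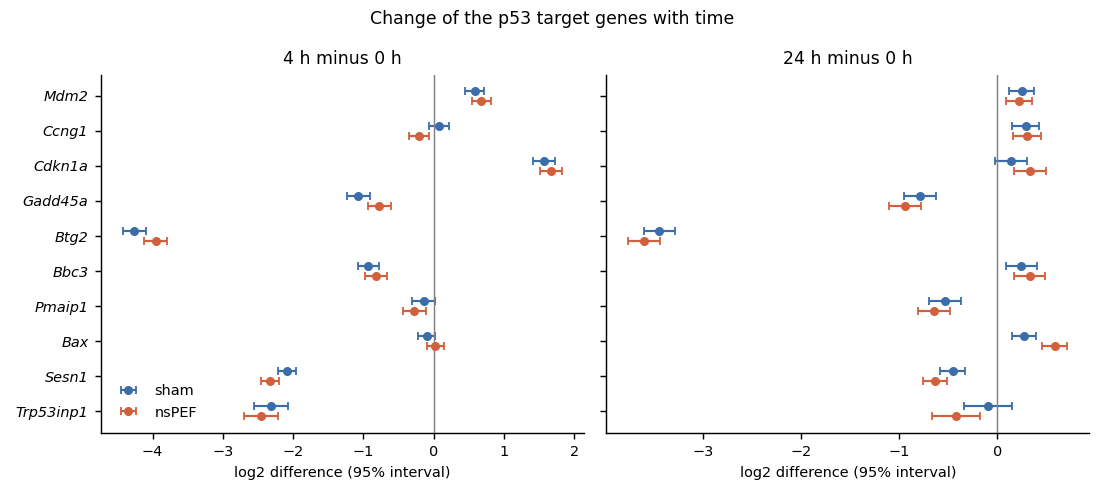
Change of each p53 target gene (y axis, main probe) from 0 h to 4 h (left) and to 24 h (right), as log2 differences (x axis) with 95% intervals from the limma fit, in sham (blue) and nsPEF (orange) cells; the panels differ in x scale. Btg2 has the largest fall at both times, -4.26 and -3.45 in sham, and Cdkn1a the largest rise at 4 h, 1.57 in sham.

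The genes of apoptosis were Bbc3 (Puma) and Pmaip1 (Noxa), which block the survival proteins of the Bcl2 family, and Bax, which opens the outer membrane of mitochondria. Bbc3 dipped at 4 h: it read 0.87 to 1.02 in S0, -0.06 to 0.13 in S4 and 1.13 to 1.25 in S24, and 0.83 to 1.10, -0.07 to 0.29 and 1.17 to 1.36 in nsPEF cells. Its 4 h value was 1.90-fold below 0 h in sham (-0.93, adjusted p = 9.09e-10) and 1.77-fold below in nsPEF (-0.82, adjusted p = 5.73e-09), with no overlap, and at 24 h it was 0.24 above 0 h in sham (adjusted p = 0.0138) and 0.33 above in nsPEF (adjusted p = 0.00141). nsPEF and sham differed by 0.00, 0.11 and 0.09 at 0, 4 and 24 h (adjusted p = 0.999, 0.411 and 0.513), all with overlapping groups.

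Pmaip1 declined slowly instead. It read 0.54 to 0.79 in S0, 0.38 to 0.56 in S4 and -0.12 to 0.20 in S24, and 0.47 to 0.68, 0.22 to 0.45 and -0.15 to 0.01 in nsPEF cells. The 24 h value was below 0 h by a log2 difference of -0.54 in sham (adjusted p = 1.7e-05) and of -0.65 in nsPEF (adjusted p = 1.5e-06), but with the spike-in scaling these were 0.14 and -0.17 and did not pass. nsPEF against sham gave -0.02, -0.15 and -0.13 (adjusted p = 0.984, 0.263 and 0.347).

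Bax rose by 24 h, and somewhat more after nsPEF, a difference that did not hold under many alternatives. Its main probe read 3.10, 3.32, 3.22 and 3.28 in S0, 3.23, 3.12, 3.14 and 3.03 in S4 and 3.44, 3.47, 3.55 and 3.55 in S24. In nsPEF cells it read 3.18, 3.19, 3.18 and 3.08 in E0, 3.21, 3.21, 3.11 and 3.19 in E4 and, without the marked spot, 3.82, 3.61 and 3.78 in E24. The arrays of 24 h lay above all arrays of 0 h in each treatment, and the 3 nsPEF arrays of 24 h above the 4 sham arrays. The rise from 0 to 24 h was 1.21-fold in sham (0.27, adjusted p = 0.00118) and 1.50-fold in nsPEF (0.58, adjusted p = 5.82e-07). The difference between nsPEF and sham at 24 h was 0.24 ± 0.063 (SE, adjusted p = 0.0364), 1.18-fold. It did not pass without sham replicate 1, 2 or 3 or nsPEF replicate 2 or 4 of 24 h, with adjusted p up to 0.164, nor with the spike-in scaling (0.15, adjusted p = 0.36), normexp, centring by row and signal or the replicate number as a block (0.23, adjusted p = 0.0628). Leaving out any 1 replicate number in all groups lost it as well (adjusted p = 0.0726 to 0.372). The second probe gave 0.17 (adjusted p = 0.132).

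Sesn1 and Trp53inp1 act in the response to oxidative and metabolic stress: sestrin 1 restrains growth signalling through mTORC1, and Trp53inp1 binds p53 and takes part in autophagy. Sesn1 read 1.72, 1.85, 1.84 and 1.79 in S0, -0.27, -0.22, -0.24 and -0.42 in S4 and 1.31, 1.35, 1.33 and 1.37 in S24. In nsPEF cells it read 1.76, 1.75, 1.90 and 1.92 in E0, -0.61, -0.52, -0.40 and -0.47 in E4 and 1.30, 1.13, 1.25 and 1.10 in E24. The 8 arrays of 4 h were the lowest, 4.25-fold below 0 h in sham (-2.09 ± 0.060, SE, adjusted p = 1.42e-16) and 5.03-fold below in nsPEF (-2.33, adjusted p = 2.53e-17). At 24 h Sesn1 was lower than at 0 h by -0.46 in sham (adjusted p = 5.47e-06) and by -0.64 in nsPEF (adjusted p = 6.34e-08). Under the spike-in scaling the sham value became 0.22, which passed in the other direction (adjusted p = 0.0311), and the nsPEF value -0.16 (adjusted p = 0.113). Between nsPEF and sham it differed by -0.21 at 4 h (adjusted p = 0.055) and -0.15 at 24 h (adjusted p = 0.148), and the 24 h groups did not overlap. Leaving out sham replicate 4 of 4 h or nsPEF replicate 1 of 24 h brought the 4 h difference past the threshold (adjusted p = 0.0307 and 0.0481). It also passed with the deposited values (-0.24, adjusted p = 0.0359) and without the filter on dim probes (adjusted p = 0.0257).

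Trp53inp1 followed the same course with a wider swing. Its main probe read -1.40, -1.23, -1.46 and -1.38 in S0, -3.43, -4.07, -3.60 and -3.62 in S4 and -1.35, -1.50, -1.29 and -1.70 in S24. In nsPEF cells it read -1.45, -1.64, -1.43 and -1.46 in E0, -3.96, -3.96, -3.90 and -3.97 in E4 and -1.64, -1.96, -1.99 and -2.09 in E24. From 0 to 4 h it fell by 2.31 in sham (4.97-fold, adjusted p = 7.01e-13) and by 2.45 in nsPEF (5.48-fold, adjusted p = 2.7e-13). At 24 h sham cells differed from 0 h by -0.09 (95% interval -0.34 to 0.15, adjusted p = 0.572), while nsPEF cells were -0.43 from it (adjusted p = 0.00629), or 0.05 with the spike-in scaling. The nsPEF cells differed from sham at 24 h by -0.46 ± 0.117 (SE, adjusted p = 0.0287), 1.37-fold lower, with 3 of the 4 nsPEF arrays below all sham arrays and replicate 1 within their range. This call was lost without sham replicate 1, 2 or 3 or nsPEF replicate 2, 3 or 4 of 24 h, with differences of -0.55 to -0.40 over all single arrays left out and adjusted p up to 0.1, and under 4 of 11 processing alternatives, and the second probe gave 0.01 (adjusted p = 0.967).

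Set side by side, the nsPEF differences were few and small. At 0 h, 0 of the 10 genes differed (limma), with 0 also at an unadjusted p under 0.05 and 0 under every alternative run, against 0.103% of all tested probes. At 4 h, 2 of 10 passed against 3.48% of all probes, with 1 higher (Gadd45a, against 1.74%) and 1 lower (Ccng1, against 1.74%). At 24 h, 2 of 10 passed against 5.27%, with 1 higher (Bax, against 2.49%) and 1 lower (Trp53inp1, against 2.78%). The median size of the difference was 0.18 for the 10 genes and 0.14 for all tested probes at 4 h, and 0.14 and 0.15 at 24 h. Groups did not overlap for 0 of the 10 genes at 0 h (8.38% of all probes), for 2 at 4 h (14.2%) and for 3 at 24 h (14.7%). Averaged over the 3 times, 3 of 10 differed against 9.3% of all probes, with 1 higher (4.43%) and 2 lower (4.87%). These were Ccng1 by -0.13 (adjusted p = 0.0429), Gadd45a by 0.15 (adjusted p = 0.0475) and Trp53inp1 by -0.28 (adjusted p = 0.0152). Trp53inp1 kept this call without any single array but lost it with the spike-in scaling (-0.19, adjusted p = 0.114), with normexp (-0.12, adjusted p = 0.115), as the mean of its probes (-0.08, adjusted p = 0.222) and without any 1 replicate number (adjusted p = 0.051 to 0.11). Ccng1 lost it with the replicate number as a block (adjusted p = 0.0514) and without 18 of the 24 arrays (all but S0 replicate 1, E0 replicate 4, S4 replicate 4, E4 replicate 2, S24 replicate 4 and E24 replicate 4) and Gadd45a without 17 (all but S0 replicate 2, E0 replicate 4, S4 replicates 1 and 4, E4 replicate 3 and E24 replicates 1 and 4), with adjusted p up to 0.084 for single arrays. Ccng1 lost it also with the spike-in scaling (-0.04, adjusted p = 0.683), centring (adjusted p = 0.289) and quantile normalization (adjusted p = 0.0754). The 75th percentile over probes well above background on all arrays lost it too (adjusted p = 0.113), as did leaving out replicate number 1, 2 or 3 (adjusted p = 0.18 to 0.248). Gadd45a lost it also after centring, with the deposited values or a 4-array filter (adjusted p = 0.0514 to 0.0799), and without any 1 replicate number (adjusted p = 0.0631 to 0.257). Sesn1, at -0.11 over all times (adjusted p = 0.0519), did not pass in the main fit. It passed with the study's two-way analysis of variance (adjusted p = 0.0397) and the deposited values (adjusted p = 0.023). It also passed without the filter on dim probes (adjusted p = 0.032) and without some single arrays. Scaled on spike-in RNA, 5 of 10 genes were higher and 0 lower in nsPEF at 4 h (Cdkn1a, Bbc3, Gadd45a, Btg2 and Bax), and 0 of 10 differed at 24 h.

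**Figure D3:**
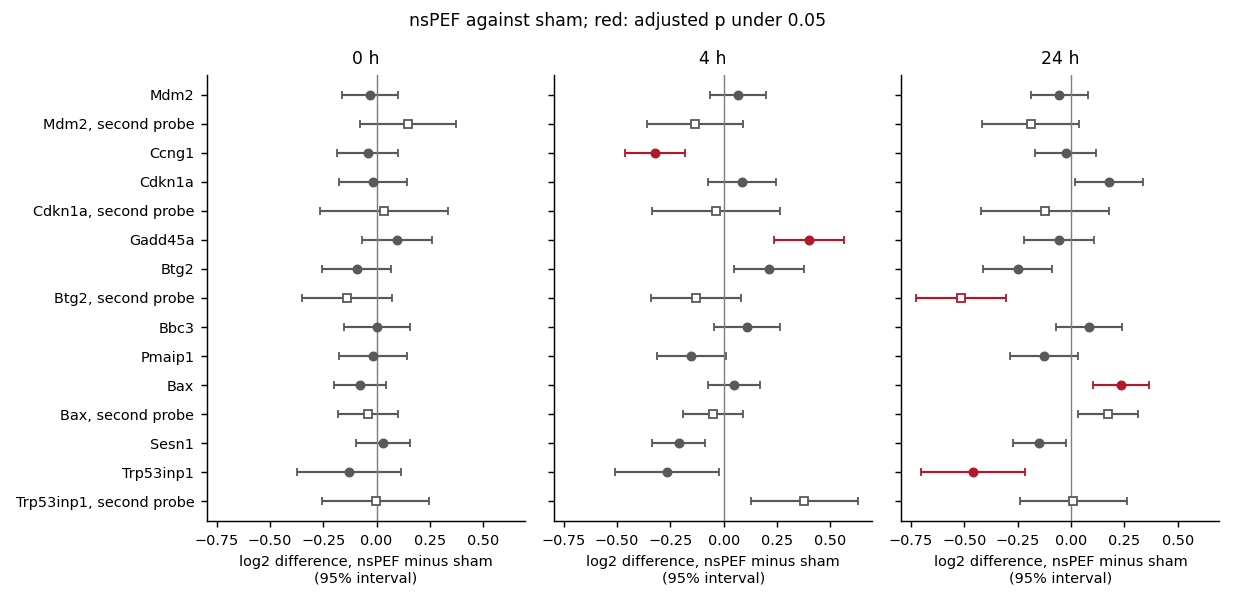
Difference between nsPEF and sham (x axis, log2, nsPEF minus sham) with its 95% interval for all 15 probes (y axis) at 0, 4 and 24 h; circles are main probes, open squares second probes, and red marks an adjusted p under 0.05. At 0 h every interval spans 0; Gadd45a (0.40) and Ccng1 (-0.32) are red at 4 h, and Bax (0.24), Trp53inp1 (-0.46) and the second Btg2 probe (-0.52) at 24 h.

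Whether the nsPEF difference itself changed with time was tested as an interaction. It passed for 0 of the 10 genes and for 0.361% of all tested probes, with the lowest adjusted p at 0.0996 for Btg2 and 0.108 for Gadd45a. Without adjustment, 5 of the 10 had a p under 0.05 (Ccng1, Gadd45a, Btg2, Bax and Sesn1). The differences at 4 h and at 24 h described above are therefore not shown to be particular to their time.

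The second probes gave a check on 5 of the genes. Over the 24 arrays the probes of Btg2 moved together (Pearson r = 0.98, Spearman rho = 0.95), as did those of Bax (0.88 and 0.63, 23 arrays) and Mdm2 (0.82 and 0.84), while those of Trp53inp1 had 0.68 and 0.47 and those of Cdkn1a -0.41 and -0.19. Arrays of a time point share a slide, so these values mostly describe 3 times. The second Cdkn1a probe, for another transcript of the gene (NM_001111099 beside NM_007669), was dim, at 28.5 to 94.1 intensity units against 444 to 3332 for the main one, and did not follow the 4 h peak: from 0 to 4 h it changed by -0.05 in sham (adjusted p = 0.806) and -0.12 in nsPEF (adjusted p = 0.492). It was higher at 24 h than at 0 h in sham, by 0.42 (adjusted p = 0.0272, lost without S0 replicate 1, 2 or 3 or S24 replicate 2), a value that was 0.05 with normexp (adjusted p = 0.727), 0.33 with quantile normalization (adjusted p = 0.104) and 0.29 after centring (adjusted p = 0.136). The second Trp53inp1 probe, at 18.6 to 49.8 units the dimmest of the 15, fell by 0.64 from 0 to 4 h in sham, where the main probe fell by 2.31. At 4 h it read -4.55 to -4.31 in S4 and -4.23 to -3.97 in E4, higher in nsPEF by 0.38 (adjusted p = 0.0822), opposite to the main probe at -0.27 (adjusted p = 0.197). The main probe passed there with quantile normalization (-0.52, adjusted p = 0.0183) and without S4 replicate 2 (-0.40, adjusted p = 0.0474). The second passed with the spike-in scaling (0.57, adjusted p = 0.0142), without the filter on dim probes (adjusted p = 0.0364) and without E0 replicate 3 (adjusted p = 0.0454). With no sequence of the probes at hand, which part of each transcript they read is not given here.

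**Figure D4:**
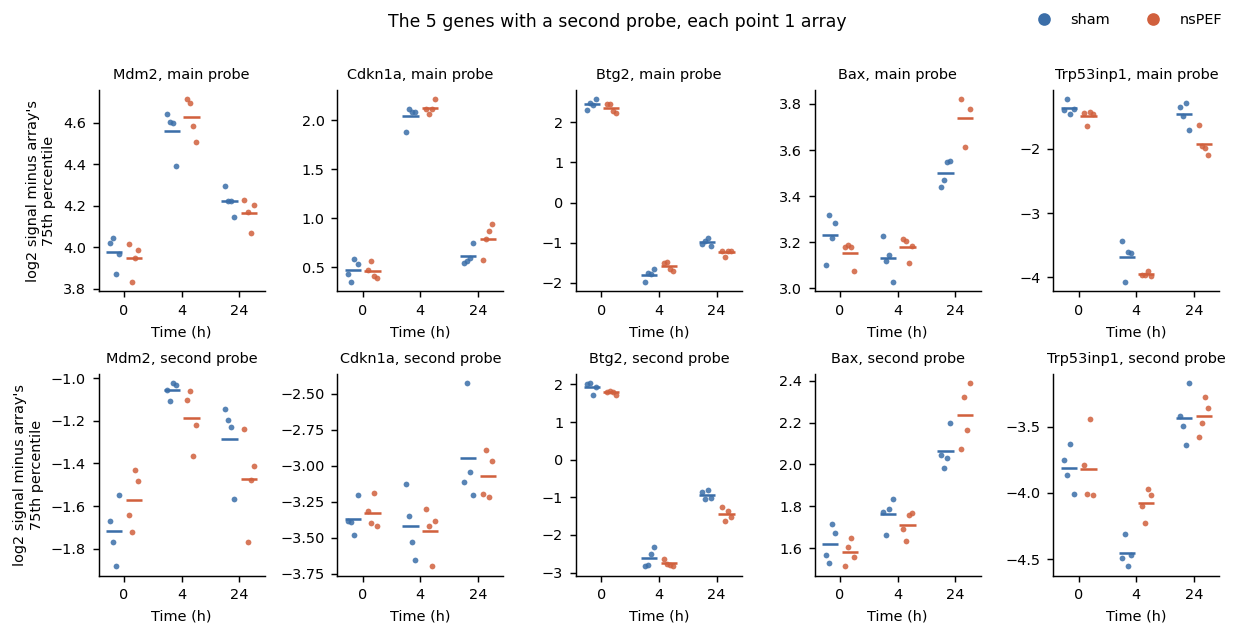
Normalized log2 signal (y axis) on every array, by hours after treatment (x axis), of the main probe (top row) and the second probe (bottom row) of the 5 genes that have both, in sham (blue) and nsPEF (orange) cells; lines are group means and each panel has its own scale. The probes of Btg2, Bax and Mdm2 share a course, and the second probe of Cdkn1a lacks the 4 h peak of the main one.

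Other genes of the pathway were read from named lists, whose counts stand against the shares of all tested probes: 29% higher and 30.3% lower at 4 h in sham, 1.74% higher and 1.74% lower with nsPEF at 4 h, and 2.49% and 2.78% at 24 h. A list gene with several probes was read by the tested probe with the highest mean over all arrays, and its other probes were not compared. Trp53, the gene of p53 itself, had group means of 1.84 in S0, 1.17 in S4 and 1.44 in S24. It was lower at 4 h by -0.67 ± 0.096 (SE, adjusted p = 3.8e-06), and nsPEF and sham differed in Trp53 by -0.25, 0.05 and 0.19 over the times in order (adjusted p = 0.352, 0.809 and 0.262). Mdm4, the partner of Mdm2, was lower at 4 h in sham by -0.33 (adjusted p = 0.00364), with nsPEF differences of 0.02, 0.10 and -0.04 (adjusted p = 0.98, 0.553 and 0.832). Of 19 tested genes of p53 and its regulators, 6 were higher and 10 lower at 4 h in sham, led by Hipk2, a kinase of p53 (1.29), Trp53rkb, another kinase (1.25), and Chek2, the checkpoint kinase (-0.94). Under nsPEF Chek2 was lower than sham at 4 h by -0.44 ± 0.085 (adjusted p = 0.0121) and Atr, which senses stalled replication, lower at 24 h by -0.21 (adjusted p = 0.0375), and no further gene of the list passed at 4 or 24 h.

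Of 41 tested further p53 targets, 13 were higher and 22 lower at 4 h in sham, with a median of -0.34 against -0.01 for all tested probes. The largest changes were falls, in Tap1, a peptide transporter of antigen presentation (-2.73), and Fdxr, ferredoxin reductase of mitochondrial steroid synthesis (-2.49). Gdf15, a secreted stress cytokine, also fell (adjusted p = 7e-05), but its probe was well above background on 12 of 24 arrays, and no size is given. Between nsPEF and sham 0 were higher and 2 lower at 4 h, Tap1 by -0.37 (adjusted p = 0.0143) and the phosphatase Ppm1d by -0.32 (adjusted p = 0.0336), which p53 induces and which dampens the damage response. At 24 h 1 was higher, the nuclease gene Aen by 0.23 (adjusted p = 0.0229), and 4 lower, led by the autophagy gene Dram1 (-0.33, adjusted p = 0.0151) and Tap1 (-0.28, adjusted p = 0.0358). The medians were -0.01 and -0.03, against 0.01 and 0.01 over all probes. Of 16 cell cycle genes that p53 and p21 are known to repress, 15 fell from 0 to 4 h in sham (median -0.70) and 15 in nsPEF (-0.77), with Cdc25c, the phosphatase that starts mitosis, lower by -1.29 and E2f1, a transcription factor of S phase entry, by -1.12, while 13 were higher at 24 h than at 4 h in sham (29% of all probes) and 14 in nsPEF (28.4%). Plk1 (-0.23, adjusted p = 0.0219) and Top2a (-0.18, adjusted p = 0.0275) were lower in nsPEF than in sham at 4 h, and 0 of 16 differed at 24 h.

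Genes known to answer to other factors were read alongside. Of 17 immediate-early genes, 14 were lower at 4 h in sham and 3 higher, with a median of -3.19 and with Fos lower by -7.29, Fosb by -5.88 and Zfp36 by -4.44, beside -4.26 for Btg2. At 4 h 3 of them were higher in nsPEF (Fosb 0.38, Myc 0.27 and Ier3 0.20), and at 24 h 4 were lower, with Fos at -0.49, Dusp1 at -0.45 and Egr2 at -0.43, beside -0.25 and -0.52 for the probes of Btg2. Of 12 genes of Atf4 and Chop, 2 were higher in nsPEF at 4 h, Chac1 by 0.43 (adjusted p = 0.00173) and Trib3 by 0.41 (adjusted p = 0.0123). Gadd45a was higher there by 0.40, while Pmaip1 differed by -0.15 (adjusted p = 0.263). At 24 h 1 of the 12 was higher, Atf5 by 0.23. In sham at 4 h 3 of the 12 were higher and 6 lower, with Ppp1r15a at -2.29, Slc7a11 at 0.92 and Ddit3 at -0.57. Of 11 tested FoxO-linked genes, 7 were lower and 3 higher at 4 h in sham, with Txnip at -2.80, Ccng2 at -2.22 and Pik3ip1 at -1.91, beside -2.09 for Sesn1 and -0.93 for Bbc3. In nsPEF against sham 0 of the 11 differed at 4 h, and Ccng2 alone was lower at 24 h (-0.49, adjusted p = 0.00602).

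**Figure D5:**
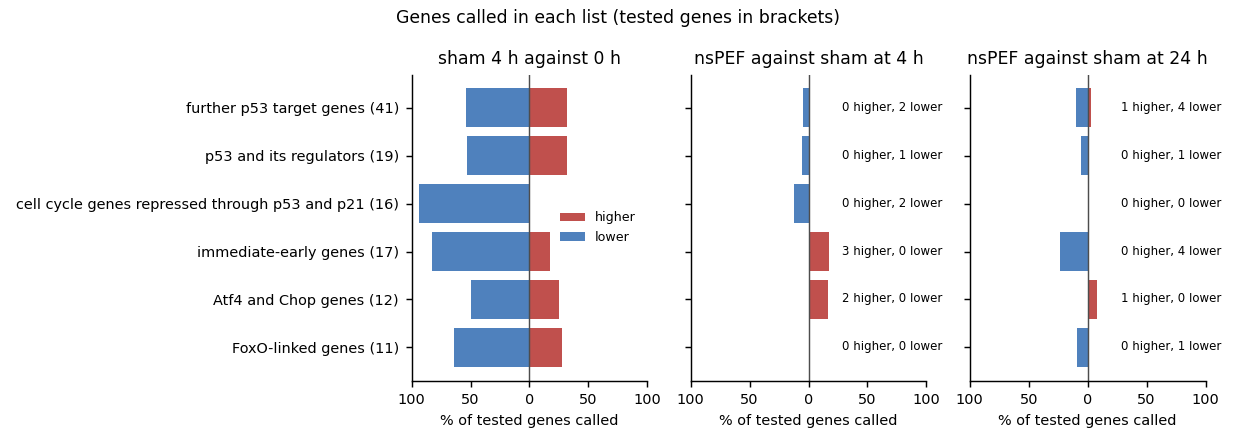
Share of tested genes (x axis, percent, drawn left for lower and right for higher) called in each gene list (y axis, number tested in brackets) at 4 h against 0 h in sham cells and for nsPEF against sham at 4 and 24 h (limma, adjusted p under 0.05). Lower genes fill most of the cell cycle (15 of 16) and immediate-early (14 of 17) lists over time, while at most 4 genes of a list are lower and 3 higher with nsPEF.

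The course of each gene was set against 23397 tested probes of other named genes over the 24 arrays, as a description only. Closest to Cdkn1a were Plec, encoding the linker protein plectin (r = 0.9962), Sco2, a copper chaperone of cytochrome oxidase that is itself a p53 target (0.9955), Rrp9 (0.9944), Hgh1 (0.9944) and Slc35c1 (0.9943). Sco2 went from 1.07 in S0 to 2.85 in S4 and 1.14 in S24, where Cdkn1a went from 0.47 to 2.04 and 0.61. The closest to Btg2 was Zfp36, which encodes the mRNA decay factor tristetraprolin (0.9943), to Sesn1 Cbr4 (0.9963), to Trp53inp1 Ccdc28a (0.9933), to Bbc3 Fastk (0.9858), to Mdm2 Nlk (0.9837), to Gadd45a 2610318N02Rik (0.9605), to Pmaip1 Nsa2 (0.9565), to Bax Fen1 (0.947, 23 arrays) and to Ccng1 Ap3m1 (0.9436). The closest match was looser for the genes whose range over time was small, such as Ccng1 and Bax, than for Sesn1, Btg2 and Cdkn1a.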

How the data were processed

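Gene expression in 24 samples was read on one-colour mouse arrays. In the deposited scanner text, each spot has a processed signal intensity, background-subtracted and detrended by the authors with Agilent Feature Extraction 12.0, together with a median and a local background intensity; no scaling across arrays had been applied. A further deposited table holds log2 values which the authors shifted to the 75th percentile and centred on each probe's median; its columns correlated at 0.999 or more with the median-centred scanner values, with medians from -0.2038 to 0.2906, so that scale, centring and direction were settled, and it served as an alternative. Its 24 columns were matched to samples by name, with 0 left over.

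Control spots and spots marked as outliers were left out. The processed signal was put on the log2 scale, less the array's 75th percentile over 59305 spots, and probes well above background on at least 2 of 4 arrays of a group were tested. Group means were fitted with limma 3.58.1 in R 4.3.3 over all 24 arrays, with Benjamini-Hochberg adjustment over 37687 probes and a threshold of 0.05; the fit was tested on simulated data. The median baseline of the study was not subtracted, which changes no difference, and limma replaced its two-way analysis of variance, which was an alternative. Named were all members with every probe, Trp53, Mdm4, the 3 largest called genes of each list at 4 and 24 h (nsPEF against sham) and at 4 against 0 h in sham, and the probes most correlated with each member. A gene that this rule names is not reported here. The members and lists were chosen with earlier results of these data known. Gene names came from RefSeq (GRCm38.p6), the array design being older (mm9). Precision is limited by 4 arrays a group and by how far signals stand above background.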

Additional observations from a re-analysis of the deposited data

Results flagged for a closer look

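In 5 of the 89 groups of 4 arrays examined over the 15 probes, 1 array stood apart from the other 3 by more of the group's range than Dixon's 95% limit allows, about as many as chance gives (1 in 20). In S4, replicate 1 read 1.88 for Cdkn1a, with the others at 2.08 to 2.11. For Pmaip1, replicate 2 of S0 read 0.79, with the others at 0.54 to 0.58. Trp53inp1 on its main probe read -1.64 in replicate 2 of E0, with the others at -1.46 to -1.43. The main Btg2 probe read -1.37 in replicate 2 of E24, where the others were at -1.20. Bax on its main probe read 3.08 in replicate 4 of E0, with the others at 3.18 to 3.19. In 1 further group, Bax in E24, only 3 values were left and no array was examined.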

How the results depend on the processing

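Of the called differences between nsPEF and sham, leaving out 1 array kept 170 of 216 values past the threshold with their direction and lost 46, leaving out a replicate number kept 7 of 36, and other processing kept 77 of 101, lost 23 and reversed 1. For changes with time the values kept were 1787 of 1800, 275 of 300 and 766 of 803, with 7 reversed. At 4 h nsPEF against sham gave 5 genes with the spike-in scaling and 1 after centring by array row and signal, and 0 to 3 with arrays left out, 0 being without replicate number 1, 2 or 3 in all groups. At 24 h it gave 0 with the spike-in scaling, 0 with normexp, 0 after centring, and 1 with the mean of a gene's probes (Btg2), and 0 to 3 with arrays left out. Over all times it gave 1 after centring (Trp53inp1) and 0 to 4 with arrays left out. With the spike-in scaling Cdkn1a (0.18, adjusted p = 0.0164), Bbc3 (0.16, adjusted p = 0.0291) and Bax (0.15, adjusted p = 0.0395) passed as higher over all times. There Gadd45a kept its call, and Ccng1 (adjusted p = 0.683) and Trp53inp1 (adjusted p = 0.114) lost theirs. The interaction gave 2 genes with the spike-in scaling (Gadd45a and Btg2). The Bax difference at 24 h was -0.0032 as the mean of its probes, by construction: E24 replicate 1 has no main probe value, so that its mean is the dimmer second probe alone (2.07), and each probe taken by itself was higher in nsPEF (0.24 and 0.17). With the spike-in scaling, sham cells at 24 h against 0 h gave 0.1443 for Pmaip1 and 0.2219 for Sesn1, and against 4 h 0.2905 for Mdm2 and 0.2316 for Pmaip1. Of these, Sesn1 (adjusted p = 0.0311) and Mdm2 (adjusted p = 0.014) passed in the reversed direction. In nsPEF cells Trp53inp1 gave 0.0494 at 24 h against 0 h, and at 24 h against 4 h the second Mdm2 probe gave 0.0952 and Pmaip1 0.0107. The cause of the shifts other than that of Bax was not tested. Of all probes called at 4 h, 50% were higher in nsPEF, against 16.5% with quantile normalization, 72.6% with normexp and 98.8% with spike-in scaling. At 24 h these were 47.2%, 29.5%, 41.4% and 48.8%, and over all times 47.6%, 15.7%, 60.4% and 98%.

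With the replicate number as a block, 1 gene differed at 24 h (Trp53inp1), Bax having 0.2337 (adjusted p = 0.0628), and Ccng1 over all times had an adjusted p of 0.0514; it changed no other call between nsPEF and sham. The numbers were not taken as pairs because 0 of 12 same-numbered arrays correlated above 0.1 in their deviations (-0.0469 to 0.0998). As a hint the other way, 7 of 12 correlated best with their own number. The study's discussion also describes a shared cell suspension for the tests of a biological replicate, except the adhesion test, without tying it to the array numbers. Signals were lowest for the second Trp53inp1 probe (18.6 units), the main Trp53inp1 probe (23.1) and the second Cdkn1a probe (28.5).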
